A study of Mus musculus with 12 samples.

Results

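Lactoferrin (Ltf) and 9 further genes known for their control by estrogen or progesterone in the uterus were examined in the seminal vesicle, the male accessory gland that makes most of the seminal fluid. The 10 genes were Ltf, Prap1, Igf1, Ihh, Lif, Ckb, Padi1, Padi2, Greb1 and Cited1, out of 30063 genes that could be named on the array. They were chosen by name, as the probe sets whose only symbol in the platform annotation was that of the gene, and each was represented by 1 probe set. All 10 passed the filter on low values that kept 20102 genes for testing. Glands of male C57BL/6 mice were collected at week 10 and their RNA was measured on 12 Affymetrix arrays, 3 in each of 4 groups. In aERKO_DES, mice lacking estrogen receptor alpha (aERKO, the product of Esr1) had received the synthetic estrogen diethylstilbestrol (DES) as newborns. In aERKO_vehicle, mice of that genotype had received the corn oil in which DES was dissolved. WT_DES and WT_vehicle were wild-type mice given the same treatments. DES was injected subcutaneously from day 1 to day 5 after birth, and a pup received 2 µg each day. The labels do not give the Esr1 allele, nor whether each array stands for a different animal, so the p-values measure the spread between these arrays, which may be technical.

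In the uterus, estrogen binds receptor alpha, which sits on DNA at estrogen response elements or through other factors and recruits coregulators to turn on genes of secretion, growth and signalling. The epithelium then secretes proteins such as lactoferrin, and the stroma makes insulin-like growth factor 1. Epithelial ligands prepare the tissue for the embryo, among them leukemia inhibitory factor and, under progesterone, Indian hedgehog. Neonatal exposure to DES is known from work in mice for changes of gene expression that last into adulthood in male and female reproductive tracts, lactoferrin in the seminal vesicle among them.

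The promoters of Ltf and Igf1, the genes with the largest increases after DES in WT, are shown beside that of Prap1, which did not pass the test and whose promoter holds a pair of core motifs in opposite orientation. The sequences are from RefSeq (GRCm38.p6) and cover the 250 bases before the gene start, read 5′ to 3′ on the plus strand, at chr9:111019042-111019291, chr10:87860861-87861110 and chr7:140093146-140093395. Capitals mark GGTCA and its reverse complement TGACC, the core of the estrogen response element.
Ltf: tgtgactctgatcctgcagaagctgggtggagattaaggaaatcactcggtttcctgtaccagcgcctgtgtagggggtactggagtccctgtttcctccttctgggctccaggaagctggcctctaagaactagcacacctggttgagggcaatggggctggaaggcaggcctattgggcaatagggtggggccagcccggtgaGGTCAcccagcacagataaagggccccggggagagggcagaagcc
Igf1: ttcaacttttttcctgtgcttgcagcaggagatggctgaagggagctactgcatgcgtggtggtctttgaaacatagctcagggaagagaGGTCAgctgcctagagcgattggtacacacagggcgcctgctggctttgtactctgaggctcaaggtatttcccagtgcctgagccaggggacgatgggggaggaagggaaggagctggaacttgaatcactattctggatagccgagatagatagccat
Prap1: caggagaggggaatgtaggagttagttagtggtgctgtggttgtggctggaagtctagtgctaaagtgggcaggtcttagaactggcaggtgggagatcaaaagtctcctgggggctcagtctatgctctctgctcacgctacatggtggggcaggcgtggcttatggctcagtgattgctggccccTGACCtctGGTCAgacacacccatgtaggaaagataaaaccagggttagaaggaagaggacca
The Ltf promoter held GGTCA at positions -45 to -41 from the start, and the Igf1 promoter held it at -160 to -156. In the Prap1 promoter TGACC lay at -63 to -59 and GGTCA at -55 to -51, the reverse order of the palindrome. The whole palindrome, GGTCANNNTGACC, searched on both strands from 250 bases before to 50 after the start, was in 0 of the 13 promoters of the 10 genes and in 23 of all 32851 promoters (0.07%). The core GGTCA, which is part of that palindrome, was in a promoter of 5 of the 10 genes, namely Ltf, Igf1, Prap1, Greb1 and Cited1. It was in a promoter of 43.6% of all 27025 genes with a promoter sequence. These matches describe the letters of the window and not binding, and sequence outside the window was not searched.

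The labelled tissue was checked with 10 secretory genes of the seminal vesicle, among them Svs4 and Svs5, which encode proteins of the mouse copulatory plug. Their group means lay between 12.23 and 14.15 on the log2 scale, where array medians were 5.95 to 6.14. Their summed linear level was 143746 to 156875 in aERKO_DES, 145437 to 158863 in aERKO_vehicle, 113827 to 134786 in WT_DES and 140597 to 147778 in WT_vehicle. Esr1 averaged 6.90 ± 0.09 in aERKO_DES, 6.99 ± 0.11 in aERKO_vehicle, 7.66 ± 0.097 in WT_DES and 7.75 ± 0.079 in WT_vehicle (log2, SD, n = 3 each), and no aERKO array reached the lowest WT array. The probe set may lie partly outside the part of Esr1 altered in aERKO, which the labels do not describe. Array pairs within a group correlated across genes at 0.982 to 0.996. The mean of 23 background control probe sets was 5.20 over all arrays and ranged from 4.70 to 5.42 by array, while single controls averaged 2.09 to 9.06. The WT_DES arrays were the lowest, at 4.99, 4.70 and 4.92, so heights above the background mean differ between WT_DES and the other groups for that reason too.

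In WT, Ltf was 55.1-fold and Igf1 2.18-fold higher at week 10 after neonatal DES, while the differences of the other 8 of the 10 genes lay between -0.35 and 0.29 on the log2 scale. By limma with Benjamini-Hochberg adjustment over all genes tested, at a threshold of 0.05, Ltf, Igf1 and Lif rose and Ckb fell. That is 3 higher and 1 lower of 10, in a comparison in which 43.9% of all genes tested were called, with 20.7% higher and 23.3% lower. The share of the 10 genes called was therefore close to that of all genes. The split of higher and lower was 5 and 0 with arrays shifted to the hybridization controls, and 2 and 3 with arrays shifted to the same median. Over all 20102 genes tested these settings gave 8345 and 350, and 3404 and 7115. The counts for the gene lists below stand beside these shares and splits. In 5 genes (Ltf, Igf1, Lif, Ckb and Ihh) the WT_DES and WT_vehicle arrays did not overlap, as in 60.9% of all genes. The median difference of the 10 genes was -0.06 on the log2 scale, beside -0.05 over all genes tested. The tissue was measured in bulk, so that fewer cells of a type and less RNA per cell cannot be told apart.

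**Figure D1:**
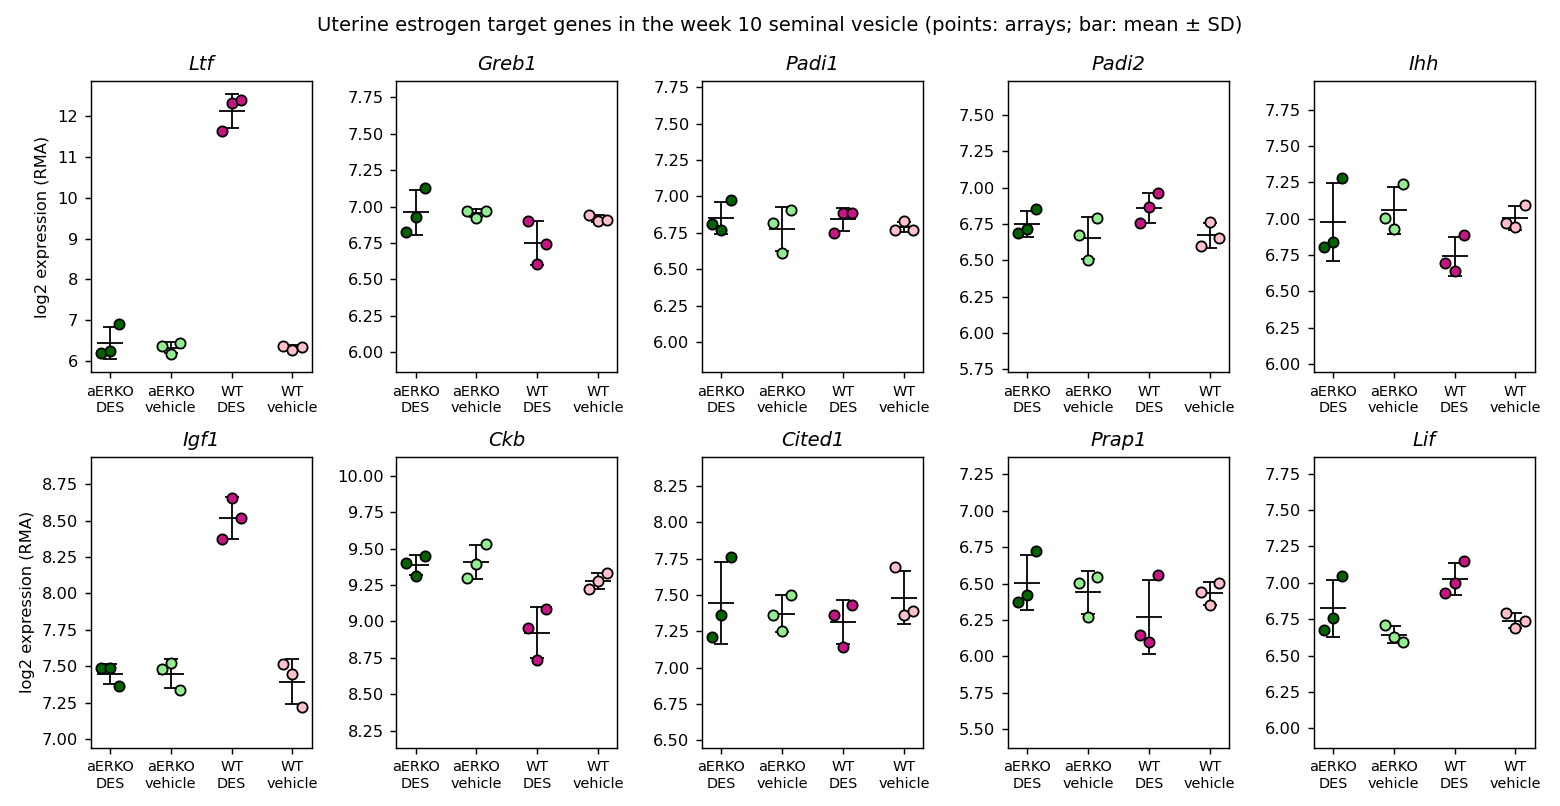
Log2 expression (RMA, vertical axis) of each of the 10 genes on each array (points), with the mean and SD of the 3 arrays of each group (bars), for aERKO_DES, aERKO_vehicle, WT_DES and WT_vehicle from left to right. The scale differs between genes and none starts at 0. Ltf in WT_DES lies between 11.64 and 12.40 and no other Ltf value exceeds 6.90, Igf1 is also set apart in WT_DES, and for the remaining genes the groups lie close together.

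Ltf encodes lactoferrin, an iron-binding antimicrobial protein that the estrogen-stimulated uterine epithelium secretes and that neutrophils store in their granules. Its log2 level was 6.19, 6.25 and 6.90 on the arrays of aERKO_DES, and 6.38, 6.17 and 6.44 on those of aERKO_vehicle. It was 11.64, 12.31 and 12.40 in WT_DES, against 6.38, 6.27 and 6.36 in WT_vehicle. The 3 WT_DES arrays stood far above the other 9, which overlapped one another. The difference between WT_DES and WT_vehicle was 5.78 ± 0.20 (SE), with a 95% interval of 5.35 to 6.22 and an adjusted p of 2.83e-10 by limma. By the size of its increase Ltf ranked 28 among the 20102 genes tested. Its mean lay 7.25 above the mean of the background controls in WT_DES and 1.03 above it in WT_vehicle. The 1.03 lies within the spread of the single background controls, which limits the precision of the fold.

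Markers of neutrophils moved in the same arrays. Of 15 tested neutrophil markers, 12 rose in WT_DES and 0 fell, with a median difference of 1.85 beside -0.05 over all genes. Their summed linear level was 1362 to 1647 in aERKO_DES, 1328 to 1574 in aERKO_vehicle, 7946 to 11602.5 in WT_DES and 1339 to 1433 in WT_vehicle. The largest increases were those of S100a8 (6.72 ± 0.15, adjusted p = 1.02e-11 by limma) and S100a9 (5.20 ± 0.16, adjusted p = 6.95e-11), which form the antimicrobial protein calprotectin. Ngp and Ly6g, further neutrophil genes, rose by 2.08 and 1.36. Mpo, Elane and Camp, which encode granule proteins of neutrophils, differed by 0.11, 0.17 and 0.06 and were not called as deposited. With arrays shifted to the hybridization controls all 15 markers were called higher, Mpo, Elane and Camp included, where 8345 of 20102 genes were called higher and 350 lower. Ngp, S100a8, Retnlg and Mmp8 lay below the background mean on all WT_vehicle arrays. These 4 genes lay below the array median on every array outside WT_DES, so they passed the filter on low values only through WT_DES. Their place among the 12 that rose was thus partly set by the filter.

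Within WT_DES the neutrophil markers averaged 8.14, 8.51 and 8.12 on arrays 1, 2 and 3, with summed linear levels of 7946, 11602.5 and 8243. Ltf was 11.64, 12.31 and 12.40 on these arrays. Array 1, the lowest for Ltf, also had the lowest sum, while array 3, the highest for Ltf, had the lowest mean. The part of neutrophils in the difference of Ltf was not tested. Macrophage markers moved as well, with 11 of 12 higher and 1 lower at a median of 1.88. The lower gene, Mertk, was at -0.46 as deposited and at -0.10 and not called with arrays shifted to the 4 hybridization controls.

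**Figure D2:**
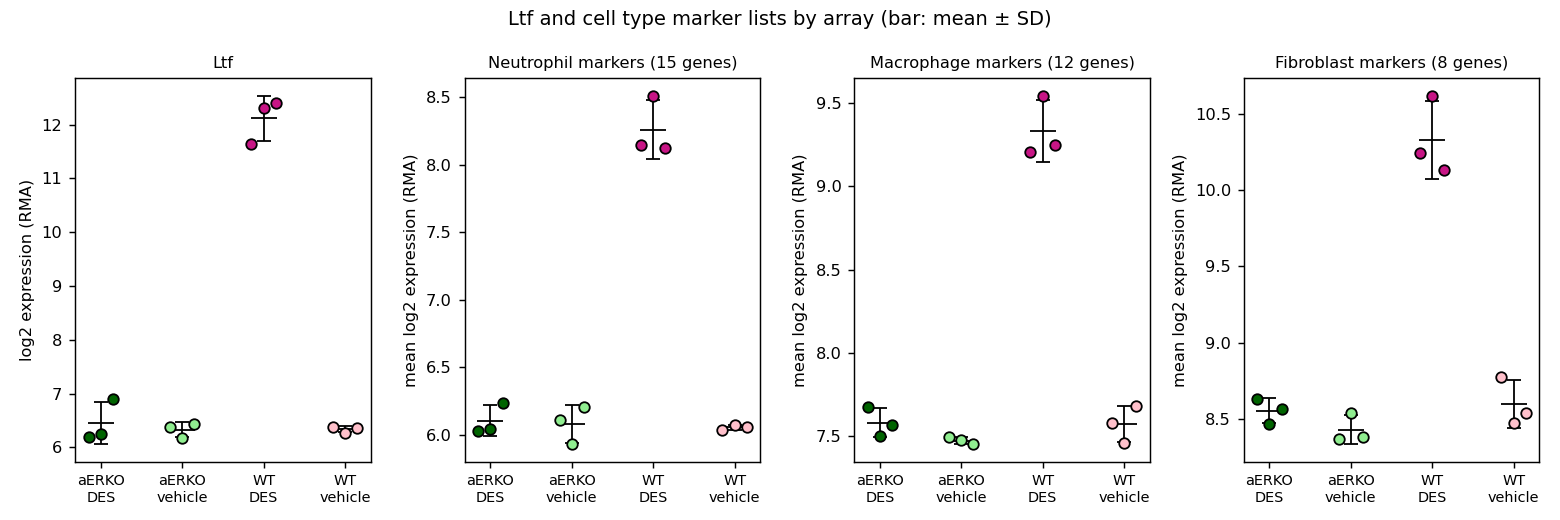
Log2 expression of Ltf and the mean log2 expression of the tested neutrophil (15 genes), macrophage (12 genes) and fibroblast (8 genes) markers, by array (points) with the group mean and SD (bars), for aERKO_DES, aERKO_vehicle, WT_DES and WT_vehicle from left to right. The WT_DES arrays stand above all others in each panel, and array 2 is the highest of them for the 3 marker lists while array 3 is the highest for Ltf.

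The genes with the profile closest to that of Ltf over the 12 arrays were found by the root mean square difference between profiles, each centred on its own mean. S100a9 was the closest at 0.341 log2 units (Pearson r = 0.995), followed by Gsdmc2 at 0.417 (r = 0.993), Cxcl13 at 0.426 (r = 0.986), S100a8 at 0.478 (r = 0.995) and Il1b at 0.521 (r = 0.991). The 12 arrays of such a correlation fall into WT_DES and the rest, so it mainly describes that split. Outside WT_DES, Gsdmc2, S100a8 and Il1b lay below the median of each array, so they passed the filter on low values only through WT_DES.

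Prap1 encodes a proline-rich acidic protein that the uterine epithelium of pregnant mice secretes. Its level was 6.37, 6.42 and 6.73 in aERKO_DES, 6.50, 6.27 and 6.55 in aERKO_vehicle, 6.15, 6.10 and 6.56 in WT_DES and 6.44, 6.35 and 6.50 in WT_vehicle. In WT_DES the arrays 1 and 2 lay below every WT_vehicle array and array 3 above them all. The difference in WT was -0.16 ± 0.13 with a 95% interval of -0.44 to 0.12 (adjusted p = 0.313 by limma). Without both DES arrays numbered 3 it was -0.31 and passed the test (adjusted p = 0.0136). Leaving out array 3, the highest of WT_DES, lowered the difference by construction. The Prap1 mean lay 1.23 above the background mean in aERKO_DES, 1.11 in aERKO_vehicle, 1.40 in WT_DES and 1.13 in WT_vehicle, and a change near that level is hard to detect. The background mean was lower on the WT_DES arrays, so the 1.40 does not mean a higher Prap1 level.

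Igf1 encodes insulin-like growth factor 1, which uterine stroma makes under estrogen and which drives epithelial growth through the receptor encoded by Igf1r. Its level was 7.48, 7.49 and 7.37 in aERKO_DES and 7.48, 7.52 and 7.33 in aERKO_vehicle. It was 8.38, 8.66 and 8.52 in WT_DES, against 7.52, 7.44 and 7.22 in WT_vehicle. The 3 WT_DES arrays were the highest of the 12 by a margin wider than the spread of any group. The difference in WT was 1.13 ± 0.094 (95% interval 0.92 to 1.33, adjusted p = 1.42e-06 by limma), which ranked 809 by increase among all genes. The closest profiles over the 12 arrays were those of Skil (0.0813 log2 units, r = 0.987), Cxadr (0.0868, r = 0.984) and Pnp2 (0.0879, r = 0.983).

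Of 13 other tested genes of the IGF pathway, 5 rose and 2 fell in WT_DES, with a median of 0.13. The increases were all of genes of the IGF-binding protein family, secreted proteins that carry IGFs or share their fold, and included Igfbp7 (1.46 ± 0.12), Igfbp4 (1.35 ± 0.084), Igfbp3 (1.09 ± 0.11) and Igfbp5 (0.82 ± 0.11). Irs1, the adaptor that carries the signal from the receptor, fell by 1.16 (SE 0.14, adjusted p = 3.32e-05 by limma). Igf1r fell by 0.50 as deposited, but its difference was -0.15 and not called (adjusted p = 0.433) once arrays were shifted to the hybridization controls. With that scaling the pathway counted 7 higher and 1 lower, with arrays at the same median 5 and 5, and after quantile normalization 5 and 4.

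Markers of stromal and immune cells moved with Igf1. All 8 tested fibroblast markers rose in WT_DES, at a median of 1.53, and their summed linear level was 3424 to 3910 in aERKO_DES, 3261 to 3602 in aERKO_vehicle, 11131 to 15676 in WT_DES and 3441 to 4333 in WT_vehicle. The macrophage markers summed to 2604 to 2928 in aERKO_DES, 2454 to 2595 in aERKO_vehicle, 13756 to 17884 in WT_DES and 2572 to 3041 in WT_vehicle. The part of these cells in the difference of Igf1 was not tested.

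Ihh encodes Indian hedgehog, which the uterine epithelium sends to the stroma under progesterone. Its level was 6.81, 6.84 and 7.28 in aERKO_DES, 7.00, 6.93 and 7.24 in aERKO_vehicle, 6.69, 6.64 and 6.89 in WT_DES and 6.97, 6.94 and 7.10 in WT_vehicle. Every WT_DES array lay below every WT_vehicle array, but the difference of -0.26 ± 0.12 did not pass the test (95% interval -0.53 to 0.0071, adjusted p = 0.102 by limma). It passed without both DES arrays numbered 3 (-0.34, adjusted p = 0.0111), after quantile normalization (-0.27, adjusted p = 0.0482) and with arrays at the same median (-0.33, adjusted p = 0.0422). Array 3 was the highest of WT_DES, so leaving it out lowered the difference by construction. It was 0.09 and not called with arrays shifted to the hybridization controls (adjusted p = 0.684).

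Of 13 other tested hedgehog genes, 3 rose and 1 fell in WT_DES, with a median of 0.08. Of all genes tested, 20.7% rose and 23.3% fell. Shh, a ligand of the same receptor, rose by 0.49 (SE 0.15, adjusted p = 0.0173 by limma), a call that was lost without WT_DES array 1 (adjusted p = 0.0716), WT_vehicle array 1 (0.062) or WT_vehicle array 2 (0.0563). The signal transducer Smo and the co-receptor Cdon rose by 0.40 and 0.41. Hhip, a decoy that binds hedgehog ligands and is itself a target of the pathway, fell by 0.82 (SE 0.16, adjusted p = 0.00145). Ptch1 and Gli1, the usual readouts of active signalling, differed by 0.12 and 0.02 and were not called as deposited. With the hybridization controls the count was 8 higher and 1 lower, Hhip being the lower gene at -0.46, and after quantile normalization it was 3 and 2. The 8 take in genes not called as deposited, and Ptch1 or Gli1 may be among them. Over all genes tested the hybridization controls gave 8345 higher and 350 lower.

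Lif encodes leukemia inhibitory factor, the cytokine that uterine glands release for implantation and that signals through Lifr and gp130 (Il6st) to Stat3. Its level was 6.67, 6.75 and 7.04 in aERKO_DES, 6.71, 6.62 and 6.60 in aERKO_vehicle, 6.93, 7.00 and 7.15 in WT_DES and 6.79, 6.69 and 6.74 in WT_vehicle. The WT_DES arrays lay above the WT_vehicle arrays by a narrow margin, and array 3 of aERKO_DES reached the WT_DES range. In WT, Lif rose by 0.29 ± 0.093 or 1.22-fold (adjusted p = 0.0269 by limma). The call was lost with arrays at the same median (0.21, adjusted p = 0.0754) and without WT_DES array 2 (0.052), WT_DES array 3 (0.0837), WT_vehicle array 2 (0.0856) or WT_vehicle array 3 (0.0663).

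Of 10 other tested genes of the LIF and gp130 pathway, 5 rose and 2 fell, with a median of 0.34. Osmr, the oncostatin M receptor subunit that pairs with gp130, had a level of 7.35, 7.24 and 7.24 in aERKO_DES, 7.20, 7.29 and 7.05 in aERKO_vehicle, 9.72, 10.45 and 9.69 in WT_DES and 7.30, 7.11 and 7.27 in WT_vehicle. Only the WT_DES arrays left the common range, and the increase was 2.73 ± 0.16 (adjusted p = 5.21e-08 by limma). Stat3, Il6ra and Il6st rose by 0.96, 0.74 and 0.47. Lifr fell by 0.44 as deposited, a call that ended with the hybridization controls (-0.08, adjusted p = 0.677), where the pathway counted 6 higher and 0 lower.

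**Figure D3:**
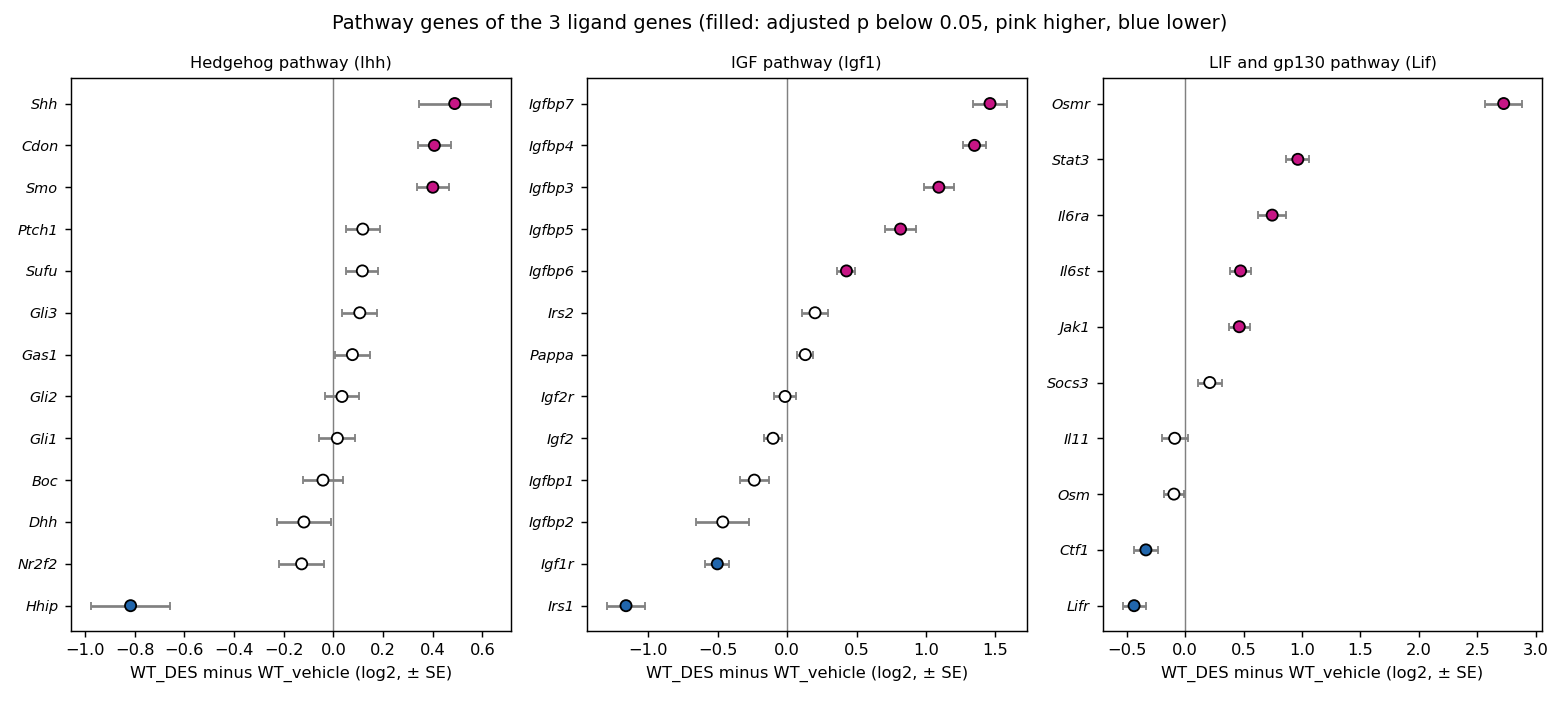
WT_DES minus WT_vehicle (log2, horizontal axis, bars ± SE from limma) for the tested genes of the hedgehog, IGF and LIF pathways, without the ligands Ihh, Igf1 and Lif themselves. Filled points passed an adjusted p of 0.05, pink for higher and blue for lower. Osmr (2.73), Igfbp7 (1.46), Igfbp4 (1.35) and Igfbp3 (1.09) have the largest positive differences, and Irs1 (-1.16) and Hhip (-0.82) the largest negative ones.

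Ckb encodes the brain-type creatine kinase, long known as an estrogen-induced protein of the rat uterus. Its level was 9.40, 9.31 and 9.45 in aERKO_DES and 9.30, 9.39 and 9.53 in aERKO_vehicle. It was 8.95, 8.73 and 9.08 in WT_DES, against 9.22, 9.28 and 9.33 in WT_vehicle. All WT_DES arrays were below the other 9. In WT it fell by 0.35 (SE 0.091), or 1.28-fold, with a 95% interval of -0.55 to -0.16 and an adjusted p of 0.00808 by limma. With arrays shifted to the hybridization controls the difference was 0.0036 (adjusted p = 0.987). The call of Ckb was therefore lost with that scaling. Ckb lay below the median of all genes in both, which was -0.05 as deposited and 0.31 after the shift.

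Smooth muscle markers were lower in the same arrays. As deposited, 7 of 9 fell at a median of -0.43, and with the hybridization controls 0 of 9 were called. Their summed linear level was 25929 to 33425 in aERKO_DES, 25588 to 30981 in aERKO_vehicle, 17831 to 20603 in WT_DES and 23758 to 26081 in WT_vehicle. Their part in the difference of Ckb was not tested. Of 5 other tested genes of creatine metabolism, Gatm, which makes the precursor of creatine, rose by 0.78 (SE 0.11), and Ckmt1, a mitochondrial creatine kinase, rose by 0.29. The creatine transporter Slc6a8 fell by 0.88 (SE 0.14, adjusted p = 0.000299 by limma) and was still lower with the hybridization controls (-0.52, adjusted p = 0.00579). The list counted 2 higher and 1 lower, and 2 and 2 after quantile normalization or with arrays at the same median.

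Padi1 and Padi2 encode peptidylarginine deiminases, which turn arginine in proteins into citrulline and follow the estrous cycle in the mouse uterus. Padi1 was 6.81, 6.77 and 6.98 in aERKO_DES, 6.82, 6.61 and 6.91 in aERKO_vehicle, 6.75, 6.89 and 6.89 in WT_DES and 6.77, 6.83 and 6.77 in WT_vehicle. Padi2 was 6.69, 6.72 and 6.85 in aERKO_DES, 6.67, 6.50 and 6.79 in aERKO_vehicle, 6.76, 6.86 and 6.96 in WT_DES and 6.60, 6.76 and 6.65 in WT_vehicle. The groups overlapped for both genes. The WT differences were 0.05 (95% interval -0.13 to 0.24, adjusted p = 0.633 by limma) and 0.19 (95% interval 0.00054 to 0.38, adjusted p = 0.0931). With the hybridization controls they were 0.41 (adjusted p = 0.0453) and 0.55 (adjusted p = 0.00754), and Padi1 was -0.02 with arrays at the same median. Padi2 also passed after quantile normalization (0.18, adjusted p = 0.0364). Padi3 and Padi4, further members of the family, differed by -0.23 and 0.20 and were not called as deposited. Of these 2 genes, 1 was called higher and 1 lower after quantile normalization. With arrays at the same median 1 was called lower, and with the hybridization controls 1 was called higher.

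Greb1 encodes a cofactor of estrogen receptor alpha that is a standard early estrogen target, and Cited1 a coactivator that binds the acetyltransferases Crebbp and Ep300. Greb1 was 6.83, 6.93 and 7.13 in aERKO_DES, 6.97, 6.92 and 6.97 in aERKO_vehicle, 6.90, 6.60 and 6.74 in WT_DES and 6.94, 6.90 and 6.91 in WT_vehicle. Cited1 was 7.21, 7.36 and 7.76 in aERKO_DES, 7.37, 7.25 and 7.50 in aERKO_vehicle, 7.36, 7.14 and 7.43 in WT_DES and 7.69, 7.37 and 7.39 in WT_vehicle. For both genes the WT_DES and WT_vehicle arrays overlapped, and most of the spread lay within the groups. In WT, Greb1 differed by -0.17 ± 0.087 (95% interval -0.36 to 0.02, adjusted p = 0.134 by limma) and Cited1 by -0.17 ± 0.14 (95% interval -0.47 to 0.13, adjusted p = 0.324). Both were 0.19 with the hybridization controls and not called. With arrays at the same median Greb1 passed the test at -0.24 (adjusted p = 0.0401).

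Of the 6 tested Cited relatives and partners, Crebbp and Ep300 rose by 0.47 and 0.45 in WT_DES, and Cited2, Cited4, Tfap2a and Tfap2c fell. Cited2 (-0.47, adjusted p = 0.0451) and Cited4 (-0.40, adjusted p = 0.036) lost their calls with the hybridization controls, where the count was 2 higher and 0 lower, and when several single arrays were left out. Both also lost them when only the compared groups were fitted (adjusted p = 0.0639 and 0.0788), and Cited2 did with no filter (0.0591), with array weights (0.0944) and without both DES arrays numbered 3 (0.145). Without WT_vehicle array 1 the difference of Cited2 was -0.29, and without WT_vehicle array 3 that of Cited4 was -0.27.

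Among the steroid receptors, Pgr, the progesterone receptor and a standard uterine estrogen target, had a level of 6.08, 6.26 and 6.09 in aERKO_DES, 6.18, 6.06 and 5.94 in aERKO_vehicle, 6.80, 7.19 and 6.91 in WT_DES and 6.33, 6.23 and 6.31 in WT_vehicle. The WT_DES arrays lay above all others. Pgr rose by 0.67 in WT (SE 0.0995, adjusted p = 0.000185 by limma). Esr1 was not called in WT (-0.09, adjusted p = 0.351), and Esr2, estrogen receptor beta, fell by 0.42 (adjusted p = 0.000495), which shrank to -0.07 with the hybridization controls (adjusted p = 0.746). Of 11 tested receptors and coregulators, 3 rose and 3 fell. That split was 5 and 1 when arrays were shifted to the hybridization controls, and 3 and 5 after quantile normalization. The coactivator Ncoa3 rose by 0.77, and the transcription factor Gata2 fell by 0.84.

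A wider list of uterine estrogen targets was counted in the same way. Of 22 tested, 13 rose and 2 fell in WT_DES, with a median of 0.46, and with the hybridization controls 16 rose and 0 fell. Over all genes tested 20.7% rose and 23.3% fell as deposited, and 8345 of 20102 rose and 350 fell with the hybridization controls. Sprr2f, an epithelial cornified-envelope gene and one of the most estrogen-responsive in the mouse uterus, was 4.66, 4.66 and 5.35 in aERKO_DES, 4.88, 4.75 and 4.99 in aERKO_vehicle, 8.90, 10.15 and 9.36 in WT_DES and 5.15, 4.96 and 4.79 in WT_vehicle. The values outside WT_DES were at about the background mean, and the difference in WT was 4.51 ± 0.26 (adjusted p = 4.51e-08 by limma). They also lay below every array median, so Sprr2f passed the filter on low values only through WT_DES. The chloride channel regulator Clca3a1 rose by 3.41, Sprr2b by 2.67 and Lcn2, which is also a neutrophil marker, by 2.55. The mucin Muc1 rose by 1.53, the early response gene Fos by 0.88 and Wnt4 by 0.33. Klf15 and Myc fell by 0.50 and 0.28 as deposited, but with the hybridization controls they were -0.14 and 0.08 and not called. This list was drawn up with earlier results of these data known, and no test set it against the 10 genes.

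In aERKO mice, none of the 10 genes was called after DES. The differences between aERKO_DES and aERKO_vehicle ran from -0.08 (Ihh) to 0.18 (Lif), and 0 of 10 passed the test by limma, as did 0% of all genes. At an unadjusted p below 0.05 there were 0 of the 10 genes and 1.31% of all genes. Non-overlapping groups were found for 0 of 10, beside 6.11% of all genes. The interval of the Ltf difference was -0.32 to 0.56 around 0.12, and that of Igf1 -0.21 to 0.20 around -0.00084, which leaves out differences of the size seen in WT.

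The difference between the DES responses was tested as an interaction, the response in aERKO minus the response in WT. It was -5.66 ± 0.28 for Ltf (adjusted p = 2.4e-08 by limma) and -1.13 ± 0.13 for Igf1 (adjusted p = 6.7e-05). These were 2 of 10 genes called, both lower, where 23.3% of all genes were called, 9.16% higher and 14.1% lower. Ckb had 0.33 ± 0.13 (adjusted p = 0.0776), and it was called higher after quantile normalization and with arrays at the same median, which made the count 3. Lif, called in WT, had -0.10 with an interval of -0.39 to 0.18 (adjusted p = 0.573), so that its responses were not shown to differ between genotypes. Among the other genes above, the interaction was -0.59 for Pgr (adjusted p = 0.0101), -4.49 for Sprr2f, -3.37 for Clca3a1, -2.63 for Osmr, 0.78 for Hhip and 1.15 for Irs1, all past the threshold. Of the 22 other uterine estrogen targets, 13 had a lower response in aERKO and 1, Klf15, a higher response.

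**Figure D4:**
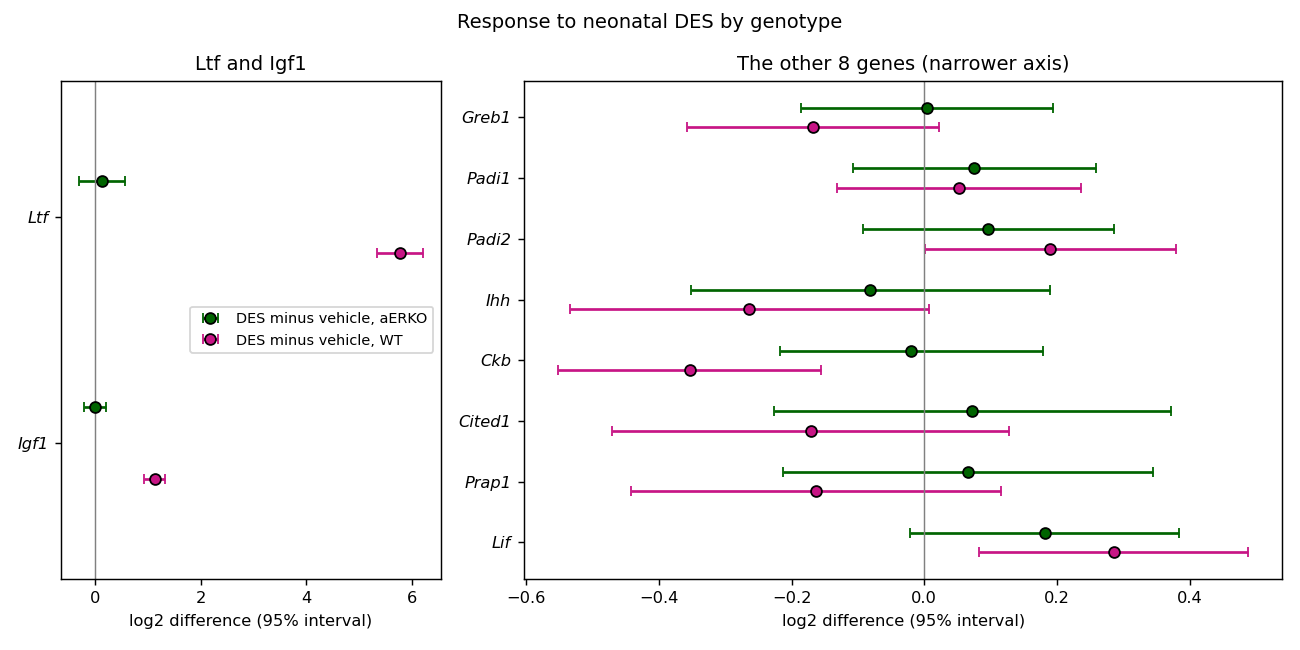
DES minus vehicle (log2, horizontal axis) in aERKO (green) and in WT (pink), with 95% intervals from limma, for Ltf and Igf1 on the left and for the other 8 genes on a narrower axis on the right. The aERKO intervals include 0 for all 10 genes, and the WT intervals lie clear of 0 for Ltf (5.78), Igf1 (1.13), Lif (0.29) and Ckb (-0.35), with that of Padi2 starting at 0.00054.

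Between genotypes given vehicle, 0 of 10 genes were called by limma, as were 0.0249% of all genes. At an unadjusted p below 0.05 there were 0 of 10, beside 4.3% of all genes. The differences between aERKO_vehicle and WT_vehicle ran from -0.11 (Cited1) to 0.13 (Ckb), and the groups overlapped for every one of the 10 genes, against 12.2% of all genes that did not overlap. The Ltf difference was -0.0068 with an interval of -0.44 to 0.43.

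Between genotypes given DES, Ltf and Igf1 were lower in aERKO_DES, with aERKO_DES minus WT_DES at -5.67 ± 0.20 for Ltf (adjusted p = 3.3e-10 by limma) and at -1.07 ± 0.094 for Igf1 (adjusted p = 2.1e-06). Ckb was higher in aERKO_DES, by 0.46 ± 0.091 (adjusted p = 0.00139), a call that ended with the hybridization controls (0.24, adjusted p = 0.243). These 3 of 10 genes called, 1 higher and 2 lower, compare with 52.1% of all genes, 27.5% higher and 24.6% lower. The split was 2 and 2 after quantile normalization, 3 and 2 with arrays at the same median and 0 and 2 with the hybridization controls. As deposited, the called genes were also the 3 whose groups did not overlap, beside 55.9% of all genes. Greb1 (0.21, adjusted p = 0.0598) and Lif (-0.20, adjusted p = 0.0849) did not pass the test. This comparison shares its WT_DES arrays with the comparison in WT.

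On array 3 of aERKO_DES and on array 3 of WT_DES, 9 of the 10 genes were above the mean of their own group, beside 48.5% and 45.4% of all genes on those arrays. On array 3 of aERKO_vehicle it was 8 of 10, and on array 2 of aERKO_DES and array 2 of aERKO_vehicle 1 of 10, beside 55.0%, 50.4% and 54.5% of all genes. Without both DES arrays numbered 3 the WT count was 6, where the calls over all genes were 10673, against 8829 with all arrays, and Ihh and Prap1 were added to the genes that fell. Array 3 was the highest of the WT_DES arrays for both genes, so leaving it out lowered their differences by construction. Ltf was then 5.64 higher in WT, and the Ltf difference in aERKO was -0.11.

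Scaling between arrays moved the small differences. The deposited values came from RMA, which gives the probe intensities of all arrays a common distribution. The 4 hybridization controls, transcripts added to the hybridization mix, averaged lower on WT_DES arrays than on the others except array 3 of aERKO_DES. Shifting arrays to these controls put the median difference of all genes in WT at 0.31, against -0.05 as deposited, and the calls over all genes to 8345 higher and 350 lower, beside 4152 and 4677 as deposited, 3515 and 7142 after quantile normalization and 3404 and 7115 with arrays at the same median. With that shift Ltf was 6.14, Igf1 1.48 and Lif 0.64, all called higher, and Greb1, Ihh, Cited1 and Prap1 had the opposite sign to that as deposited. Ckb also changed sign, to 0.0036, and was not called. Quantile normalization gave 5.64 for Ltf and 1.04 for Igf1, and a shift to the same median gave 5.71 and 1.05. Relative to the median of all genes, Ltf and Igf1 were higher under each of these scalings.

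**Figure D5:**
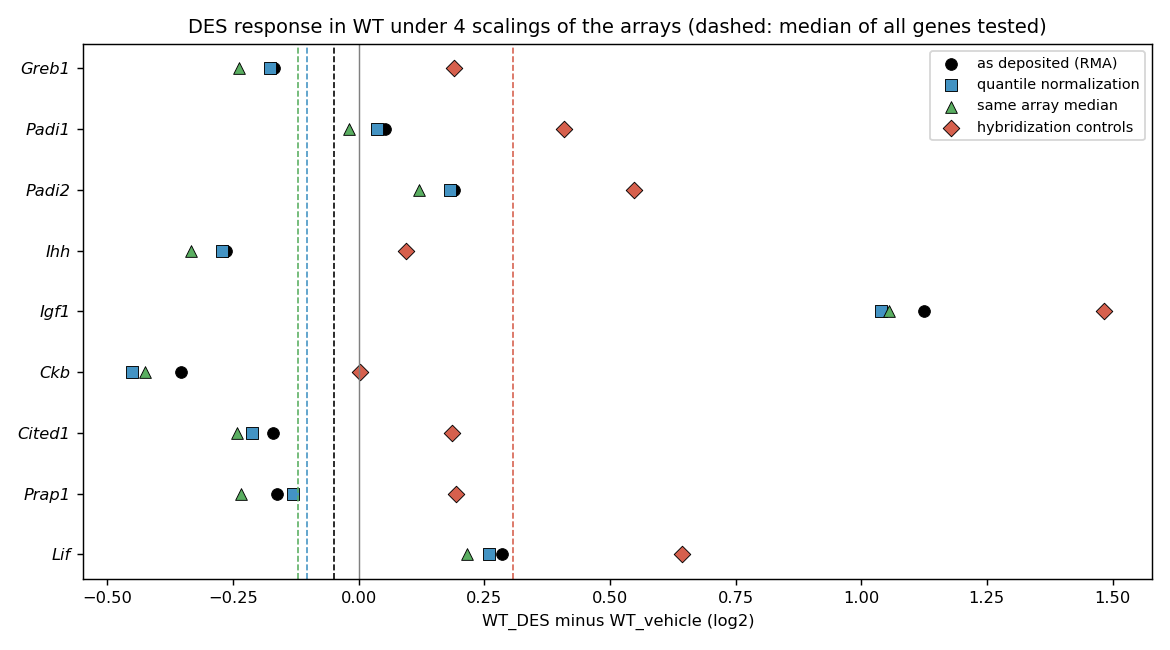
WT_DES minus WT_vehicle (log2, horizontal axis) for 9 of the 10 genes under 4 scalings of the arrays, with dashed lines at the median of all genes tested under each scaling. Ltf, at 5.64 to 6.14, is left out for its size. Igf1 stays right of every line, and the other genes move with the lines, from left of 0 to right of it for Greb1, Ihh, Cited1 and Prap1. Ckb moves from left of 0 to 0.0036.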

How the data were processed

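RNA of 12 seminal vesicle samples, 3 in each of 4 groups named by their titles, was measured on 12 arrays. RNA was isolated with Trizol, and 300 ng per array were amplified and given a biotin label, per the labels' protocols. Each deposited value is the log2 level of a probe set. Per the submitters' processing notes, the authors ran RMA with Affymetrix Expression Console. RMA corrects background and gives the probe intensities of all arrays 1 distribution, which can push unchanged genes slightly against a broad change. It then summarizes each probe set, and the medians of the deposited arrays still ran from 5.95 to 6.14. Its settings and the genome build were not given in the sources used here.

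Of 72688 probe sets, 30604 had 1 platform symbol, 2146 several and 39938 none, 186 being array controls. After 1135 symbols were updated through the GRCm38.p6 RefSeq table, 30063 genes remained, each represented by its brightest probe set. Genes above the array median on at least 3 arrays were tested (20102 kept, 9961 removed). A gene could thus enter through the 3 arrays of 1 group alone, as S100a8 and Sprr2f did through WT_DES. Depth has no counterpart on arrays, and their number limits the precision. Limma 3.58.1 in R 4.3.3 fitted a mean per group over all 12 arrays (8 residual and 4.33 prior degrees of freedom), two-sided, with p adjusted by Benjamini-Hochberg across all genes in each of 5 comparisons. The fit was tested on simulated data. SE and intervals come from limma, SD from the arrays. An exact test of 3 against 3 arrays has a smallest p of 0.1 and was left out.

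The 10 genes, the 16 other gene lists and the tests were chosen with earlier results of these data known. Named genes are the 10, up to 4 called genes with the largest WT difference per list, Esr1, Esr2 and Pgr, and the closest profiles to Ltf and Igf1, without small RNAs, provisional names and antigen receptor segments. Camp, Mpo, Elane, Ngp, Ly6g, Igf1r, Lifr, Ptch1, Gli1, Padi3, Padi4, Muc1, Fos, Wnt4, Klf15, Myc, Igfbp5, Mertk, Mmp8, Svs4, Svs5, Tfap2a, Tfap2c and Krt5 lie outside this rule and were picked once their values had been seen. Alternatives changed the filter, probe set rule, moderation, groups fitted, scaling, replicate block, array weights and arrays left out, 1 at a time. For named genes outside the 10 they were added after seeing the data. Promoter motifs were searched in the RefSeq windows of 250 bases before to 50 after each start.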

Additional observations from a re-analysis of the deposited data

Results flagged for a closer look

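The response to neonatal DES differed between genotypes for Ltf and Igf1 by a test of the difference itself. For Ltf the response was 0.12 (95% interval -0.32 to 0.56) in aERKO and 5.78 (5.35 to 6.22) in WT, a difference of -5.66 ± 0.28 (SE, adjusted p = 2.4e-08 by limma). The Ltf value of array 3 of aERKO_DES, 6.90, was the highest outside WT_DES, and without it and array 3 of WT_DES the aERKO response was -0.11. For Igf1 the response was -0.00084 (-0.21 to 0.20) in aERKO and 1.13 (0.92 to 1.33) in WT, a difference of -1.13 ± 0.13 (adjusted p = 6.7e-05).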

How the results depend on the processing

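Over 23 settings, the 9 called differences of the 10 genes gave 162 values, of which 155 kept direction and call, 6 lost the call and 1 reversed. The reversed value was Ckb in WT, 0.0036 with arrays shifted to the hybridization controls, a change of sign that was not called. Those that lost the call were Lif in WT (0.21 with arrays at the same median, and without WT_DES array 2 or 3 or WT_vehicle array 2 or 3) and Ckb between aERKO_DES and WT_DES (0.24 with the hybridization controls). Lif was not tested under the stricter filter. Of 1391 values of 82 results on other genes, 1349 kept direction and call, 39 lost the call and 3 reversed with the hybridization controls (Svs2 0.00026, Spinkl 0.072 and Myc 0.079). The count of genes called between aERKO_DES and WT_DES, 3, was 5 with arrays at the same median, with array weights, whose iteration stopped before it converged, without both DES arrays numbered 3 and with the replicate number as a block. With that block the WT count was 5, with Ihh added, and that of the interaction 3, with Ckb added. Ihh and Prap1 were the genes it added between aERKO_DES and WT_DES, and Cited2 lost its call in WT (adjusted p = 0.059). The numbers were not taken to pair arrays, since deviations of same-numbered arrays correlated between -0.355 and 0.52 over the pairs of groups and only in some pairs best with their own number. Leaving out 1 array at a time gave 3 to 5 genes called in WT, 0 to 0 in aERKO, 2 to 3 for the interaction, 0 to 0 between vehicle groups and 3 to 4 between DES groups, where a group of 2 arrays is assumed to vary like the others. In WT, 6 genes were called after quantile normalization (4 higher and 2 lower), 5 with arrays at the same median (2 and 3) and 5 with the hybridization controls (5 and 0). Between vehicle groups all genes called numbered 5, and 80 with array weights and 14 with the hybridization controls. Signals near the background controls limit what small differences of the dim genes can show.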

Other observations

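Epithelial and skeletal muscle markers completed the picture of the glands in which these genes were measured. Of 11 tested basal and squamous markers, 9 rose and 0 fell in WT_DES, at a median of 1.11. A marker high in WT_DES alone could pass the filter on low values, so this count is partly set by the filter. Sprr3 and Krt1, measured but not tested, averaged 3.64 and 5.60 in WT_DES against 3.71 and 5.71 in WT_vehicle. The summed linear level of the 13 such markers measured, tested or not, was 2150 to 2455 in aERKO_DES, 2176 to 2372 in aERKO_vehicle, 7647 to 10330.4 in WT_DES and 2410 to 2524 in WT_vehicle. Ly6d, a surface protein of squamous epithelium, rose by 3.30 (SE 0.15), the keratins Krt4, Krt15 and Krt5 by 2.92, 2.42 and 1.62, and the cornified-envelope gene Sprr1a by 1.80 (SE 0.35, adjusted p = 0.00141 by limma). The counts were 9 and 0 under each of the scalings tried.

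Of 9 luminal epithelial markers, 5 rose and 2 fell, at a median of 0.26, and 3 and 2 after quantile normalization. Krt7 and the cadherin Cdh1 rose by 0.84 and 0.64, and the claudin Cldn3 fell by 0.63, which was -0.27 and not called with the hybridization controls (adjusted p = 0.144), where 6 were higher and 0 lower. Of 10 secretory markers, 0 rose and 6 fell at a median of -0.25, led by Spink1, a protease inhibitor of the fluid, at -0.93. With the hybridization controls 0 rose and 1 fell at a median of 0.11. Of 8 skeletal muscle markers, 3 rose and 2 fell as deposited, and 5 and 1 with the hybridization controls. No part of the differences of the 10 genes was tested against these lists.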
